A study of Mus musculus with 8 samples.

Results

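Voltage-gated calcium and sodium channel subunit genes were picked by name from the platform annotation of an Illumina MouseRef-8 array, as every gene whose symbol begins with *Cacna1*, *Cacna2*, *Cacnb*, *Cacng* or *Scn* followed by a subunit number and letter. The rule gave 28 genes with 45 probes, among 16593 named genes on the array, and used no measured value. Of the 28 genes, 12 encode pore-forming subunits and 16 encode auxiliary subunits. Whole-brain RNA was compared between 4 *Hfe*-/- × *Tfr2*mut mice, bred to be homozygous for the disruption of *Hfe* and the mutation of *Tfr2*, and 4 wild-type mice. All 8 were male AKR mice aged 13 weeks. For the last 3 weeks the mutants ate chow containing 2% carbonyl iron, whereas the wild-type animals ate standard chow (0.02% iron), so in every difference given here the genotype and the diet cannot be told apart. All 8 arrays lay on 1 BeadChip. In these bulk samples, fewer cells of a type and less RNA per cell cannot be told apart either.

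Voltage-gated channels open when the membrane depolarizes and let sodium or calcium enter the cell. Sodium channels carry the rising phase of the action potential, and calcium channels turn electrical activity into a calcium signal that drives transmitter release, pacemaking and gene expression. The pore is a single large protein, encoded by the *Scn*-a and *Cacna1* genes. Auxiliary subunits alter its trafficking and gating: the sodium channel beta subunits, the intracellular calcium channel beta subunits and the extracellular alpha2delta subunits. The genes named for gamma subunits mostly encode proteins better known as TARPs, which escort AMPA-type glutamate receptors and tune their gating.

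Values are cubic-spline-normalized, background-subtracted signals in intensity units, and a probe counted as detected in an array at a detection p under 0.01. Probes detected in all arrays of at least 1 group were tested with limma on log2 signal, mutant minus wild-type, and a gene was represented by its brightest detected probe. Each array detected 11188 to 12192 of 25697 probes, the lowest detected signal was 49.6 to 69.4 units, and 11204 probes for 8051 genes were tested. Signals of different probes are not comparable with each other, so levels were compared only between arrays. Wild-type replicate 1 stood furthest from the other arrays (mean Pearson's r of 0.980 across probes, against 0.984 to 0.990 for the other arrays). Neurons, oligodendrocytes and astrocytes were all represented, since *Rbfox3* (9529 to 11252 units), *Mog* (1585 to 2166) and *Slc1a2* (1295 to 1721) were detected in every array.

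Of the 28 genes 16 were detected in all 8 arrays, 4 pore and 12 auxiliary subunit genes. Among them 4 were lower in the mutant arrays at an unadjusted p under 0.05 and 0 were higher, namely the T-type calcium channel gene *Cacna1h* and the gamma subunit genes *Cacng3*, *Cacng5* and *Cacng7*. That is 25% of the detected members, against 5.7% of all genes called lower and 6.79% called higher at the same threshold. After Benjamini-Hochberg adjustment over all probes 0 of the 16 passed in limma, where 0.199% of all genes did. The 4 genes were 1.18-fold to 1.29-fold lower. By probe, 6 of 20 detected member probes were lower and 0 higher, against 6.02% and 6.72% of all tested probes, and 14 of 20 had a negative difference, against 50.4%. For 0 of the 16 genes were the groups free of overlap, against 8.04% of all genes. Leaving out 1 array at a time left 1 to 3 members lower, and each of the 4 calls was lost without at least 3 of the arrays, one at a time.

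The balance of directions depended on the scaling. With the authors' average-normalized values, 6 members were lower and 0 higher, with *Cacna1g* and *Scn8a* added to the 4 above. With those values 12.2% of all genes were called lower and 3.38% higher, and 66.9% had a negative difference. Of all probes called at the unadjusted threshold, 80.7% were lower after average scaling and 47.2% after cubic-spline scaling.

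**Figure D1:**
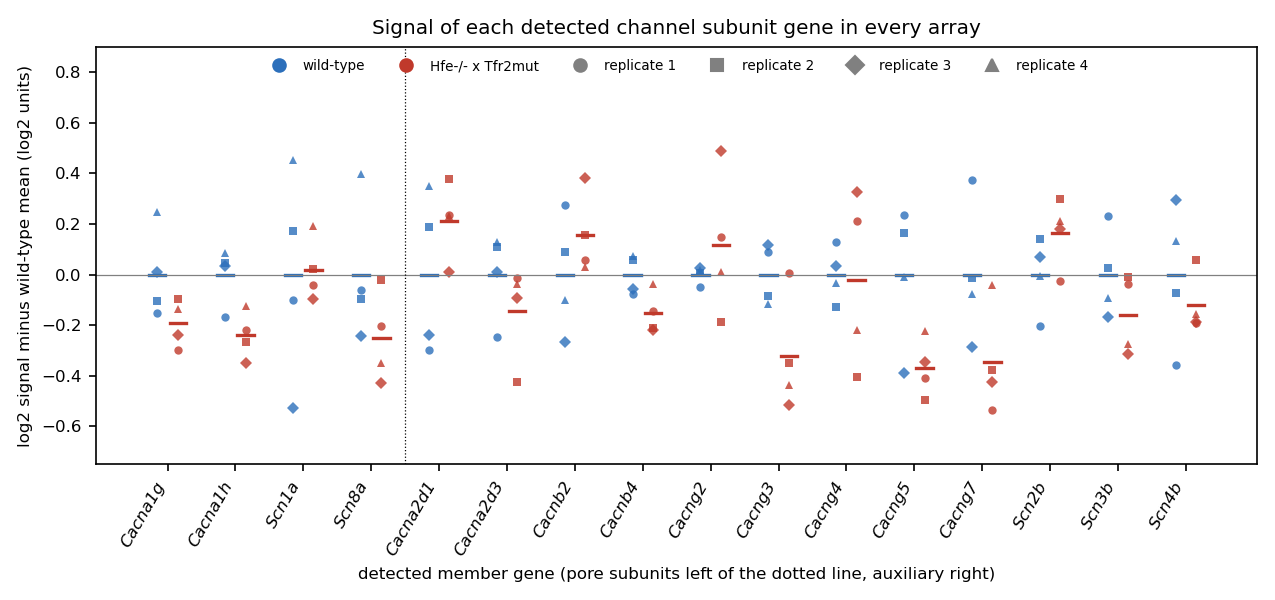
Each symbol is 1 array, drawn as its log2 signal minus the wild-type mean of that gene, with wild-type arrays in blue, *Hfe*-/- × *Tfr2*mut arrays in red, symbol shapes for the replicate numbers and short bars for group means. The mutant mean lies below the wild-type mean for 11 of the 16 detected genes, and the groups overlap for all 16.

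T-type channels open near the resting potential and shape burst firing in thalamus and other regions. Both T-type genes on the array were detected. *Cacna1h*, for the pore Cav3.2, gave 733, 708, 669 and 781 units in mutant replicates 1 to 4 and 759, 879, 873 and 904 units in the wild-type arrays. Wild-type replicate 1 was the only wild-type array below a mutant one, mutant replicate 4. The mean was 722.5 ± 47.1 (SD, n = 4) against 854 ± 64.6 (SD, n = 4), 1.18-fold lower (−0.24 on the log2 scale, SE 0.096, limma unadjusted p = 0.0301, adjusted p = 0.344; two-sided exact permutation p = 0.0571). The unadjusted p rose to between 0.0515 and 0.081 when mutant replicate 1, 2 or 3 or wild-type replicate 2, 3 or 4 was left out, with differences between −0.25 and −0.20.

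*Cacna1g*, for the pore Cav3.1, was read by a pair of detected probes. The brighter gave 552, 635, 575 and 617 units in the mutant arrays and 610.5, 631, 682.5 and 806 in the wild-type arrays. Only wild-type replicates 3 and 4 stood above every mutant array, and the difference of −0.19 (SE 0.109, 95% interval −0.43 to 0.05) did not pass (limma p = 0.106, exact permutation p = 0.143). Without wild-type replicate 4 it was −0.11. The dimmer probe gave 152, 191, 157 and 194.5 units against 222.5, 189, 246 and 208, where wild-type replicate 2 fell among the mutant arrays. It differed by −0.32 (SE 0.121, limma p = 0.0228, adjusted p = 0.335; exact permutation p = 0.0857). The limma p rose to between 0.0626 and 0.0736, and the difference to −0.28 or −0.26, without mutant replicate 1, mutant replicate 3 or wild-type replicate 3. Both probes therefore leaned the same way and only the dimmer passed.

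The pores of the L-type, P/Q-type and N-type channels stayed near or below the detection limit, and 0 of their 5 genes on the array met the criterion for testing. *Cacna1a*, for the P/Q-type pore that triggers transmitter release, was detected in 3 of 4 arrays of each group, at 52.8 to 86.6 units in mutant and 46.6 to 103 units in wild-type arrays. *Cacna1b*, for the N-type pore, was detected in 0 mutant and 2 wild-type arrays by its brightest probe, and so was *Cacna1d*, an L-type pore gene. The brightest of 4 probes for *Cacna1c*, the main L-type pore of neurons, was detected in 1 mutant array and 0 wild-type arrays. It read 63.4, 37.8, 34.2 and 61.2 units in the mutant and 29.6, 31.1, 19.3 and 32.8 units in the wild-type arrays. These groups did not overlap, as for 7.85% of all tested probes, but this probe was not among those tested. The wild-type arrays were not above background, so no fold is given. *Cacna1f*, whose channel serves photoreceptors, was detected in 0 arrays.

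Among sodium channel pores, *Scn1a* and *Scn8a* were detected in every array and neither passed the threshold. *Scn1a*, for Nav1.1, which inhibitory interneurons rely on, gave 532, 555, 512 and 624 units in the mutant and 510, 616, 380 and 749 units in the wild-type arrays. The wild-type arrays spread more widely than the mutant arrays, with replicate 3 lowest and replicate 4 highest of all. The difference was +0.02 (SE 0.181, 95% interval −0.38 to 0.42, exact permutation p = 0.886), and it was −0.16 without wild-type replicate 3 and +0.17 without wild-type replicate 4. *Scn8a*, for Nav1.6 of the axon initial segment and nodes of Ranvier, gave 163, 185, 140.1 and 148 units against 181, 176, 159 and 248. Wild-type replicate 4 again stood above all other arrays, and the difference was −0.25 (SE 0.146, 95% interval −0.57 to 0.07, exact permutation p = 0.2). Without that array it was −0.12. *Scn7a*, for a sodium-sensing channel, and *Scn10a* and *Scn11a*, for channels of peripheral sensory neurons, were detected in 0 arrays.

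The gamma subunit genes held 3 of the 4 calls, with 5 of 8 genes detected and a median difference of −0.32 over those 5. *Cacng5* encodes gamma-5, an atypical TARP found in glia as well as neurons. Its brighter probe gave 857, 806, 895 and 973 units in the mutant and 1337, 1273, 869 and 1129 units in the wild-type arrays. Wild-type replicate 3 lay inside the range of the mutant arrays and the other 3 wild-type arrays lay above it. The mean was 883 ± 70.5 (SD, n = 4) against 1152 ± 208 (SD, n = 4), 1.29-fold lower (−0.37 on the log2 scale, SE 0.137, limma p = 0.0216, adjusted p = 0.332; exact permutation p = 0.0857). Dropping any one of 3 arrays (mutant replicate 2, wild-type replicate 1, wild-type replicate 2) raised the limma p to between 0.0552 and 0.066 and put the difference between −0.33 and −0.29.

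The other detected *Cacng5* probe gave 528, 503, 485 and 536 units in the mutant and 873, 684, 581 and 608 units in the wild-type arrays, so the groups did not overlap. It was the only detected probe of any member without overlap, 1 of 20, against 7.85% of all tested probes. Its difference was −0.40 (SE 0.128, limma p = 0.00967, adjusted p = 0.288; exact permutation p = 0.0286, the smallest that 4 against 4 arrays allow). The call held without any single array (p up to 0.0255, differences −0.48 to −0.28).

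*Cacng7*, for gamma-7, the closest relative of gamma-5, gave 181, 202, 196 and 255 units in the mutant and 340.1, 260, 215 and 248 units in the wild-type arrays. Mutant replicate 4 reached the middle of the wild-type arrays. The difference was −0.34 (SE 0.152, limma p = 0.0451, adjusted p = 0.383; exact permutation p = 0.0857), close to the threshold. It missed it without mutant replicate 1, 2 or 3 or wild-type replicate 1, 2 or 4 (p from 0.0585 to 0.129), and without wild-type replicate 1, the brightest array, it was −0.22. In the wild-type group, replicates 1, 2, 4 and 3 ranked in that order from high to low for *Cacng7* and for both *Cacng5* probes. Mean signal of the whole array without normalization ranked them in the same order, at 904.6, 739, 624.6 and 570.6 units. In the mutant group that mean ranked replicates 3, 1, 4 and 2 (740.7, 677.5, 604.6 and 569.5 units). *Cacng7* ranked them 4, 2, 3 and 1, the brighter *Cacng5* probe 4, 3, 1 and 2, and the dimmer 4, 1, 2 and 3. For the other called members, wild-type replicates ranked 3, 1, 2 and 4 (*Cacng3*) and 4, 2, 3 and 1 (*Cacna1h*). The mean was taken before normalization and the gene values after it, and a link between the orders was not tested.

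*Cacng3*, for gamma-3, a TARP of cortical and hippocampal neurons, gave 592, 463, 412.5 and 435 units in the mutant and 627, 556, 639 and 543 units in the wild-type arrays. Mutant replicate 1 lay among the wild-type arrays and the other 3 below all of them. The difference was −0.32 (SE 0.125, limma p = 0.0254, adjusted p = 0.344; exact permutation p = 0.0857). It missed the threshold without mutant replicate 3 or 4 or wild-type replicate 1 or 3 (p from 0.0561 to 0.075, differences from −0.29 to −0.26). A second probe leaned the same way by −0.20 (SE 0.156), with overlap between the groups.

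The remaining gamma subunit genes gave no call. *Cacng2*, for stargazin, the founding TARP, gave 195, 154, 247 and 177 units in the mutant arrays, on both sides of the narrow wild-type range of 169.9 to 179 (+0.12, SE 0.133, 95% interval −0.18 to 0.41). *Cacng4*, the immediate neighbour of *Cacng5* on chromosome 11, gave 194, 126, 210 and 144 units against 153 to 183 (−0.02, SE 0.157, 95% interval −0.37 to 0.32). For both genes the mutant arrays spread further apart than the wild-type arrays. *Cacng8*, the neighbour of *Cacng7*, was detected in 0 mutant arrays and 1 wild-type array. *Cacng1*, the gamma subunit of the skeletal muscle channel, and *Cacng6* were detected in 0 arrays.

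*Cacng5* and *Cacng3* each lie beside a gene for a protein kinase C, a family of signalling kinases, in RefSeq order. *Prkca* follows *Cacng5* and *Prkcb* precedes *Cacng3*, and both kinase genes were read after the values of the gamma genes had been seen. *Prkca* gave 77.4, 103, 67.9 and 67.9 units in the mutant arrays, detected in 3 of 4, and 128, 108, 102 and 103 in the wild-type arrays. It entered the fit through the wild-type group alone, where it was higher. Mutant replicate 2 reached the wild-type range and the other 3 mutant arrays lay below it (−0.50, SE 0.143, limma p = 0.00533, adjusted p = 0.25; exact permutation p = 0.0571). *Prkcb* gave 7634, 6064, 7844 and 6766 units against 9970, 8699, 7018 and 8528 and did not pass (−0.27, SE 0.128, limma p = 0.0591, exact permutation p = 0.114). For *Prkcb*, as for *Cacng5* and *Cacng7*, wild-type replicate 1 was the brightest and replicate 3 the dimmest wild-type array. The same held for mean signal of the whole array without normalization. In the mutant group *Prkcb* ranked replicates 3, 1, 4 and 2, as that mean did, whereas *Cacng5* and *Cacng7* did not.

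**Figure D2:**
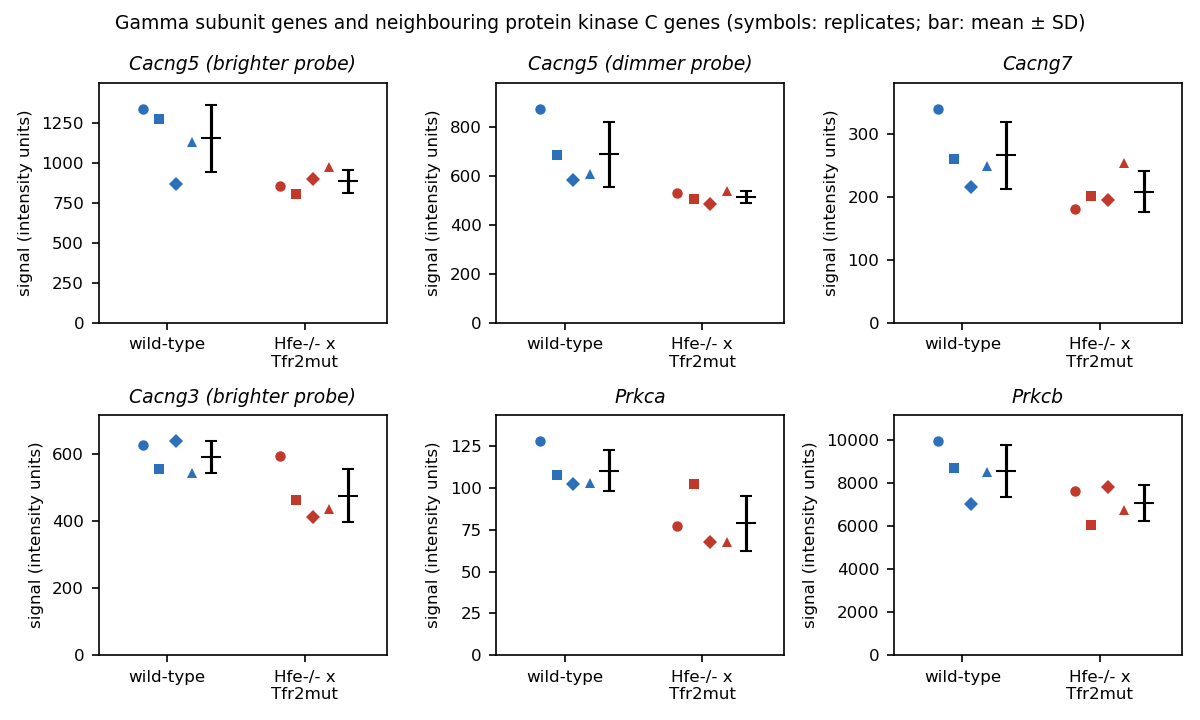
Signals in intensity units of the *Cacng5*, *Cacng7* and *Cacng3* probes and of the neighbouring *Prkca* and *Prkcb* probes, with 1 symbol for each array, shapes for replicate numbers and the mean ± SD of 4 arrays beside them. The dimmer *Cacng5* probe shows no overlap, from 485 to 536 units in mutant and 581 to 873 in wild-type arrays, whereas 1 or more arrays cross in each other panel.

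The other calcium channel auxiliary subunits went in both directions and gave no call. *Cacna2d1*, for alpha2delta-1, the target of gabapentin, gave 1251, 1383, 1071 and 1247 units in the mutant and 866, 1211, 901 and 1354 units in the wild-type arrays. Wild-type replicates 1 and 3 lay below all mutant arrays and replicates 2 and 4 did not (+0.21, SE 0.153, exact permutation p = 0.257). The difference was +0.115 without wild-type replicate 1, +0.134 without wild-type replicate 3 and +0.33 without wild-type replicate 4, and only the last passed the unadjusted threshold (0.0467 in limma, 0.521 after adjustment). *Cacna2d1* is the 1 member on the chromosome of *Tfr2*, and 0 members lie on that of *Hfe*. *Cacna2d3*, for alpha2delta-3, gave 819 to 1087 units in mutant and 926 to 1200 in wild-type arrays (−0.14, SE 0.124).

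The intracellular beta subunits bring high-voltage-activated pores to the membrane. *Cacnb4*, whose loss causes ataxia and seizures in mice, gave 3770, 3598, 3576 and 4065 units in the mutant and 3951, 4343, 4003 and 4388 in the wild-type arrays by its brighter probe. Mutant replicate 4 alone reached into the wild-type range (−0.15, SE 0.09, 95% interval −0.35 to 0.05, exact permutation p = 0.0857). Its dimmer probe had the opposite sign (+0.11, SE 0.244), with mutant arrays at 168, 301, 132 and 190.2 units and wild-type arrays at 144, 139, 219 and 217. *Cacnb2* gave 233 to 297 units against 190 to 276 (+0.16, SE 0.132), and *Cacnb1* was detected in 2 mutant and 3 wild-type arrays by its brightest probe.

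Sodium channel beta subunits are single-pass proteins that bind the pore and cell adhesion molecules, and 3 of 3 genes on the array were detected without a call. *Scn2b*, for beta-2, gave 2466, 3091, 2844 and 2908 units in the mutant and 2178, 2768, 2634 and 2502 units in the wild-type arrays (+0.17, SE 0.11, 95% interval −0.08 to 0.41). *Scn4b*, for beta-4, a subunit of resurgent current that is rich in striatum, gave 2557, 3041, 2562 and 2619 units against 2278, 2778, 3577 and 3201 (−0.12, SE 0.139). The *Scn4b* difference was −0.24 without wild-type replicate 1, −0.18 without mutant replicate 2, −0.07 without wild-type replicate 4 and −0.02 without wild-type replicate 3. *Scn2b* and *Scn4b* are neighbours in RefSeq order and their mean differences had opposite signs. *Scn3b*, for beta-3, gave 404 to 498.5 units against 447 to 590 (−0.16, SE 0.118).

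The pore and auxiliary classes were compared by their counts and medians, with no test. The median difference was −0.22 over 4 detected pore genes, of which 1 was called lower, and −0.13 over 12 auxiliary genes, of which 3 were, beside a median of 0.00 over all genes. A negative difference was seen in 3 of 4 pore and 8 of 12 auxiliary genes, where 49.9% of all genes had one. The share called lower was 25% in each class. All 3 auxiliary calls were gamma subunit genes (median −0.32 over 5). The other auxiliary groups had 0 calls, with medians of −0.12 for sodium channel beta, 0.002 for calcium channel beta and +0.04 for alpha2delta subunits. Detected genes were 4 of 12 in the pore class and 12 of 16 in the auxiliary class, and probe design and transcript abundance cannot be told apart in a detection call. The pore median rested in part on wild-type replicate 4, whose pore genes had a median log2 deviation of 0.39 from the mean of all arrays, and without that array it was −0.11.

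**Figure D3:**
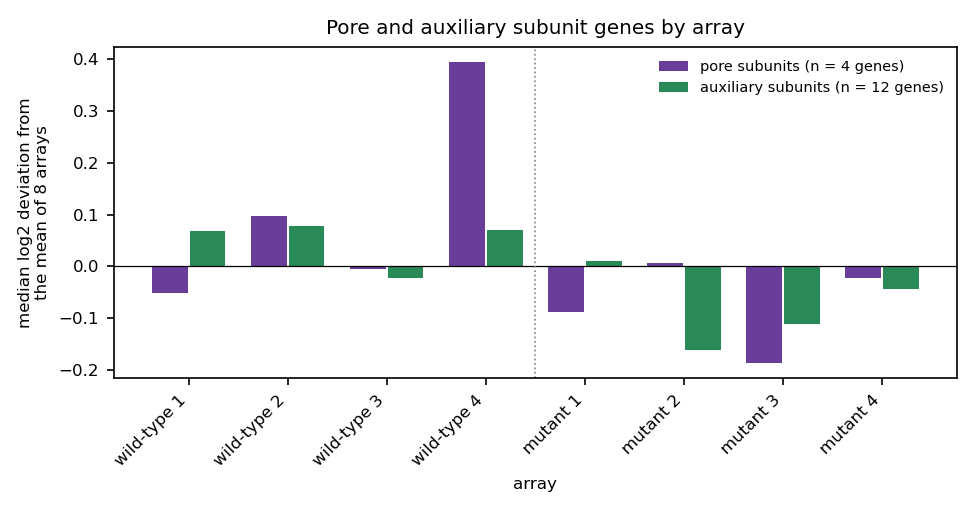
Bars give, for each array, the median over detected genes of the log2 signal minus the mean of that gene over the 8 arrays, in purple for 4 pore and in green for 12 auxiliary subunit genes. Wild-type replicate 4 stands out at 0.39 for pore genes, whereas its auxiliary genes lie at 0.07.

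**Figure D4:**
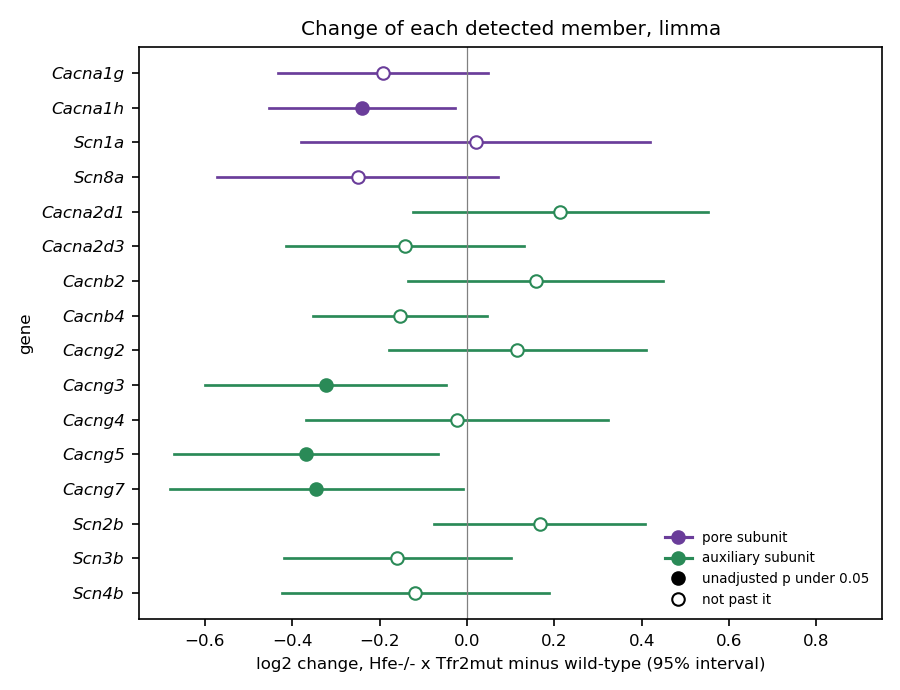
Points are log2 differences, *Hfe*-/- × *Tfr2*mut minus wild-type, with 95% intervals from limma for the 16 detected genes, filled where the unadjusted p is under 0.05. The intervals of *Cacna1h*, *Cacng3*, *Cacng5* and *Cacng7* lie below 0 and those of the other 12 genes include 0.

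Genes of channel partners and of other routes for these ions were counted in the same fit, and 0 passed adjusted p. Of 13 detected sodium channel partners 2 were lower and 0 higher at an unadjusted p under 0.05, with a median of −0.15, where 5.7% of all genes were lower and 6.79% higher. They were *Ank3*, for ankyrin-G, which anchors sodium channels at the axon initial segment, at 936, 744, 729 and 977 units against 1085, 1191, 968 and 1105 (−0.37, SE 0.123, limma adjusted p = 0.297), and *Ank2*, for ankyrin-B (−0.31, SE 0.115). Only mutant replicate 4 reached the wild-type range of *Ank3*. Of 21 detected calcium channel partners, AMPA receptor subunits included, 1 was lower and 0 higher, the vesicle calcium sensor gene *Syt1* (−0.34, SE 0.124). That is 4.76% of the list, near the 5.7% of all genes, and the median was −0.05. Among the uncalled partners, *Cntnap1* for sodium channels (−0.27) was detected in 2 mutant and 4 wild-type arrays. *Apba1* for calcium channels (−0.28) was detected in 3 and 4. Both entered the fit through the wild-type group alone, where they were higher.

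Of 18 detected genes for other routes of sodium and calcium movement 5 were lower and 0 higher, with a median of −0.16. That is 27.8% lower, against 5.7% of all genes. *Ryr1*, not called (−0.34), was detected in 2 mutant and 4 wild-type arrays and entered the fit through the wild-type group alone, where it was higher. The sodium-calcium exchanger *Slc8a1* gave 589, 575, 631 and 563 units in the mutant and 979, 745, 633 and 683 units in the wild-type arrays, without overlap, as for 8.04% of all genes (−0.35, SE 0.132, limma adjusted p = 0.337; exact permutation p = 0.0286). The other 4 had overlapping groups: the exchanger *Slc8a2* (−0.33), the sodium pump subunit *Atp1b2* (−0.56), the endoplasmic calcium release channel *Ryr3* (−0.32) and the mitochondrial uniporter *Mcu* (−0.46). For *Slc8a1*, wild-type replicates 1, 2, 4 and 3 ranked as they did for *Cacng5* and *Cacng7*, and for mean signal of the whole array without normalization. Mutant replicates ranked 3, 1, 2 and 4 for *Slc8a1* and 3, 1, 4 and 2 for that mean. A link between the orders was not tested.

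Neuronal markers were read beside the channel genes. Of 12 detected neuronal markers 3 were lower and 0 higher, with a median of −0.13, and 11 of 12 had a negative difference. That is 25% lower and 91.7% negative, against 5.7% and 49.9% of all genes. Their summed signal was 97303 to 102499 units in mutant and 99862 to 120235 in wild-type arrays, highest in wild-type replicate 1 and lowest of the wild-type group in replicate 3. In that group the same arrays were highest and lowest in mean signal without normalization. In the mutant group replicate 2 was lowest in both, and the highest was replicate 1 for the sum and replicate 3 for that mean. Such a sum is carried by the brightest probes of a list and does not measure the content of a cell type. Neurofilament *Nefh*, *Syt1* and *Syn1* were the 3 that passed, whereas the neuronal nuclear marker *Rbfox3* differed by +0.03. The part of neuronal content in the lower channel signals was not tested.

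Other cell types and regions gave the following values beside the channel genes. Over all genes, 5.7% were called lower and 6.79% higher at the same unadjusted threshold, and 49.9% had a negative difference. Negative differences were seen for 7 of 7 oligodendrocyte markers (median −0.18), 5 of 5 endothelial and mural markers (median −0.35) and 5 of 9 astrocyte markers, and positive ones for 7 of 8 microglial markers (median +0.18). Lower calls were made for 2 of 7 oligodendrocyte markers (sums 69680 to 72706 against 71389 to 80019 units), 2 of 5 endothelial and mural markers (3625 to 5104 against 5044 to 5695) and 1 of 9 astrocyte markers (52854 to 57293 against 53066 to 61645). Higher calls were made for 2 of 8 microglial markers (3707 to 3969 against 3217 to 3694 units) and 1 of 4 oligodendrocyte precursor markers, *Cspg4*. *Cspg4* read 67.55 to 95.67 units in mutant and 58.79 to 68.03 in wild-type arrays, near the detection limit. It was detected in 4 mutant and 3 wild-type arrays, so it entered the fit through the mutant group alone. The precursor sum (9814 to 12687 against 12162 to 13386) followed mainly *Olig1*, with means of 9607 in mutant and 10935 in wild-type arrays. Of 5 choroid plexus markers 1 was lower (28582 to 37565 against 30939 to 38458). Cerebellar markers, of regional interest because gamma-7 is abundant in cerebellum, had 0 lower and 1 higher of 8 detected, with sums of 39845 to 45748 against 38382 to 42716 units. Of the thalamic and hypothalamic markers 0 of 10 were lower and 1 was higher, and of the striatal and the cortical and hippocampal markers 0 of 6 passed in each list. Of 12 muscle markers, 2 were detected, with 0 calls. The part of any of these markers in the channel results was not tested. The sums were carried by their brightest probes, such as *Mbp* for oligodendrocytes (mutant mean of 39280 units) and *Ttr* for choroid plexus (mutant mean of 31450).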

How the data were processed

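Whole-brain RNA was hybridized to Illumina MouseRef-8 v2 arrays. The authors subtracted background in GenomeStudio and deposited bead intensity without normalization and after Average or Cubic Spline scaling, each with the detection p-value of every probe and array. All columns had a sample. Probe symbols were updated to RefSeq (GRCm38.p6) by Entrez identifier.

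Probes with a detection p under 0.01 in all 4 arrays of a group entered the fit. Cubic-spline signals were floored at 10, converted to log2 and fitted with limma 3.58.1 (R 4.3.3) on 2 groups without covariates, with Benjamini-Hochberg adjustment across 11204 probes. The exact permutation test used all 70 splits of the arrays (two-sided, smallest p = 0.0286). The unadjusted threshold of 0.05 follows the study.

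Array values were due for members past that threshold, with a log2 difference of at least 0.3 or with probes of opposite sign. Those of other members, and single markers, were added after their values were seen. Up to 6 genes with the lowest p were named from each pathway list. The members and lists were chosen with earlier results of these data known. By the study's methods RNA came from at least 4 mice a group, and arrays were taken as separate mice. The number of arrays limits precision. Promoter sequences are not reported here. Alternatives were the average table, quantile and neqc normalization, floors of 1 and 30, other detection filters, a replicate block, the mean of a gene's probes and leaving out each array.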

Additional observations from a re-analysis of the deposited data

Results flagged for a closer look

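*Scn4b*, for the sodium channel beta-4 subunit, had 1 mutant array apart from the other 3. Mutant replicate 2 gave 3041 units and the others 2557 to 2619, a gap to the nearest array of 0.872 of the range of the group. This was 1 of 32 groups of 4 arrays examined, and the limit applied, Dixon's 95% critical value, is by its definition passed by chance in about 1 in 20 groups.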

How the results depend on the processing

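Quantile normalization, neqc, floors of 1 and 30 and detection in all 8 arrays gave the same 4 lower members (*Cacna1h*, *Cacng3*, *Cacng5* and *Cacng7*) and 0 higher. Average scaling gave 6 lower members and a median difference of −0.09 over all probes. Detection in at least 1 array and no filter each gave 4 lower members and 1 higher, *Cacna1c*. Both lost *Cacng7* (limma p of 0.057 and 0.0844) and added *Cacna1d* and *Cacnb4*, respectively. The mean of all detected probes gave 4 lower, with *Cacna1g* in place of *Cacng3*, and an auxiliary median of −0.07. Without each array in turn 1 to 3 members were lower and 0 to 1 higher, and the median ranged from −0.24 to −0.11 for pore and from −0.14 to −0.09 for auxiliary subunits. The replicate block left 2 lower, *Cacng3* and *Cacng5*. Same-numbered arrays deviated from their group means with correlations of 0.10, −0.14, −0.35 and 0.10, so the numbers were not taken as pairs. Same-numbered arrays also lay in neighbouring sections of the BeadChip. At adjusted p 0 members passed in every setting. The 4 called members kept their sign in every setting, and among the other detected members *Cacng2*, *Cacng4* and *Scn1a* changed sign in 2, 3 and 4 of 18 settings. Among uncalled members that kept their sign, the difference was −0.05 for *Cacna2d3* without mutant replicate 2, +0.07 for *Cacnb2* without wild-type replicate 3, and −0.08 for *Scn3b* and +0.10 for *Scn2b* without wild-type replicate 1. The cause of these changes was not tested. Signals of *Cacna1a*, *Cacna1b*, *Cacna1c*, *Cacna1d* and *Cacnb1* lay at the detection limit, where a difference cannot be read.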

Other observations

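Direct neighbours of the member genes in RefSeq order were looked up after the values of *Prkca* had been seen. Of 18 detected neighbours that are not members themselves, 2 were lower and 3 higher at an unadjusted p under 0.05, and 0 passed adjusted p in limma, with a median difference of −0.08. Of all genes 5.7% were lower and 6.79% higher at that threshold. The lower ones were *Prkca* beside *Cacng5* and the zinc transporter gene *Slc39a12* beside *Cacnb2* (−0.23, SE 0.10, adjusted p = 0.377). *Prkca*, detected in 3 mutant and 4 wild-type arrays, entered the fit through the wild-type group alone. The higher ones were the ribosomal protein gene *Rpl19* beside *Cacnb1* (+0.31, SE 0.104, adjusted p = 0.298), *Zfp202* beside *Scn3b* (+0.26, SE 0.096, adjusted p = 0.334) and the intraflagellar transport gene *Ift27* beside *Cacng2* (+0.26, SE 0.094, adjusted p = 0.331). A member lies next to another member for 10 of the 28 genes, and *Cacng4* (−0.02) and *Cacng5* (−0.37) are such a pair with unlike differences, which were not tested against each other.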
